A study of Mus musculus with 9 samples.

Results

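Methylation was examined at 4 amplified regions of the genes Myh6 and Myh7, named Myh6_1, Myh6_2, Myh7_1 and Myh7_2. Their members are the CpG sites (a C followed by a G) that had at least 30 reads in each of 9 libraries, which holds for 20 of the 310 sites measured at that depth in 26 regions of the series. Members were chosen by gene name and depth, with no filter on methylation, though earlier results of these data were known. Of the CpG sites listed, all 4 of Myh6_1, all 3 of Myh6_2 and all 9 of Myh7_1 were used, and 4 of 5 of Myh7_2. The site left out, at offset 299 of Myh7_2, had at most 1 read in a library. An offset is the position in bases within the amplified region, as listed in the deposited data.

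The cells were primary cardiomyocytes of CD-1 mice, taken on embryonic day 13.5 from ventricles that were pooled within a litter. In every group they spent 48 h in culture, then received siRNA (0.012 pmol), and after a further 72 h were sorted magnetically for the surface protein VCAM1. Negative siRNA, DNMT3a siRNA and DNMT3b siRNA gave 3 libraries apiece, and the knockdown reagents were mixtures of 4 siRNAs. Bisulfite treatment turns unmethylated C into T in the reads, so the methylation level of a site is the percent of its reads that carry C. The amplified genes do not include Dnmt3a, Dnmt3b or an expression measurement, so the degree of knockdown and the cell type could not be checked here.

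Myh6 encodes the alpha and Myh7 the beta heavy chain of cardiac myosin, the motor protein of the thick filament. The genes lie in tandem, and in the mouse the ventricle relies on the beta chain before birth and switches to the alpha chain after it. DNMT3a and DNMT3b are the de novo DNA methyltransferases, which place methyl groups on unmethylated CpG sites, and methylation near a gene's start often goes with low transcription. On chromosome 14 of GRCm38.p6, the assembly that mm10 stands for, RefSeq places Myh6 at 54941921 to 54968017 and Myh7 at 54970684 to 54994626, both on the minus strand. The lncRNA gene Mhrt (54968787 to 54974349) lies between their starts and overlaps the 3′ part of Myh7.

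The files give no coordinates, so regions were placed by comparing the offsets and 3-base contexts of their cytosines with RefSeq promoter sequences, which run from 250 bases before to 50 bases after an annotated start. Myh6_1 matched the Myh6 promoter at 71 of 71 cytosines in the window. Myh7_2 matched the promoter of the upstream Myh7 start at 58 of 58 cytosines, and that of a start 77 bases downstream at 44 of 44. Each matched no other gene among 32851 windows. Myh6_2 and Myh7_1 matched no window and are not placed here. The bases before the starts (5′ to 3′ on the minus strand, RefSeq, GRCm38.p6) are shown because they hold 2 of the 4 tested CpG sites of Myh6_1 and all 4 of Myh7_2. Capitals mark CpG sites with a measured level.
Myh6, chr14:54966608-54966857: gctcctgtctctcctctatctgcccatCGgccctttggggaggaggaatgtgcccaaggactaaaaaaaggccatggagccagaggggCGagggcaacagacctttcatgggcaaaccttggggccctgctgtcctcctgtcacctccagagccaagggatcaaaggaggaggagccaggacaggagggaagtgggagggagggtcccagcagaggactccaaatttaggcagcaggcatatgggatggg
Myh7, chr14:54994627-54994876: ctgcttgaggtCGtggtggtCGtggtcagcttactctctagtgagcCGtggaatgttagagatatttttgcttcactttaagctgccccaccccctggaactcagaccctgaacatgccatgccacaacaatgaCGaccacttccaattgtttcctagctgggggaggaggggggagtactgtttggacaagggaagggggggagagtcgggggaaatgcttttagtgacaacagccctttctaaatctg
In the Myh6 sequence the capitals are offsets 71 and 132 of Myh6_1, which lie 223 and 162 bases before the start at 54966607. Offset 43 lies 251 bases before the start, just outside the printed bases. Offset 362 lies 68 bases after it, in the transcribed part. Counted in the same way, Myh6_1 runs from 54966480 to 54966895. Its upstream part is still within the longest RefSeq extent of Myh6. In the Myh7 sequence the capitals are offsets 102, 111, 137 and 225 of Myh7_2, which lie 239, 230, 204 and 116 bases before the start at 54994626. Whether any of these bases differ in CD-1 mice was not analysed here.

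Both promoters held fewer CpG sites than the median promoter window, Myh7 only slightly so. The 300-base window of Myh6 holds 2 CpG sites and that of Myh7 holds 5, against a median of 7.0 over all windows. As few or fewer were found in 23.3% of windows for Myh6 and in 43.6% for Myh7. The M-CAT element CATTCC, a binding motif of TEAD factors in many muscle genes, was searched on both strands of these windows. Each promoter holds 1 match, on the opposite strand, starting 206 bases before the start in Myh6 and 201 bases before it in Myh7, and 14.7% of all windows hold at least 1. In Myh7 it is 1 base away from the CpG at offset 137, and in Myh6 15 bases from that at offset 71. TATAAA was found in the Myh6 window only, 1 base after the annotated start (13.6% of windows). The E-box CANNTG occurred in both (72.3% of windows), in Myh7 once 8 bases from the CpG at offset 225. These are letter matches only. For Myh7 the counts and matches are of the window of the upstream start. The window of the start 77 bases downstream was not searched.

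The 4 regions spanned most of the range of methylation. In negative siRNA libraries 1, 2 and 3, Myh6_1 stood at 47.6%, 47.5% and 48.3%, a region level being the mean over its tested sites. Myh6_2 stood at 69.7%, 70.6% and 71.8%. Both alpha-chain regions were thus at intermediate to high levels, with little spread between control libraries. Myh7_1 stood at 57.2%, 59.7% and 61.9%. Myh7_2, at the start of the beta-chain gene, stood at 8.47%, 7.80% and 10.0%. It was the least methylated of the 4 and ranked 20 of 26 regions from the highest, where Myh6_2, Myh7_1 and Myh6_1 ranked 4, 7 and 11.

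The order Myh6_2, Myh7_1, Myh6_1, Myh7_2 was seen in 9 of 9 libraries. The neighbours Myh7_1 and Myh6_1 were nearest, 4.32 to 13.6 points apart within a library, and their ranges over the DNMT3a siRNA libraries overlapped. At the annotated starts, Myh6_1 exceeded Myh7_2 by 36.0 to 42.6 points within a library (mean 39.5 ± 1.94, SD, n = 9). This pair was chosen after the regions had been placed and is given with no test.

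Within each library the mean of the Myh6 regions was higher than that of the Myh7 regions. The difference was 25.8 ± 1.54 points (SD, n = 9), ranged from 24.1 to 28.5 and was positive in 9 of 9 libraries (exact two-sided sign-flip permutation p = 0.0039, the smallest 9 libraries can give, and the same after adjustment over 3 such contrasts). Its size depended on the weights. It was 14.7 points when every site of a gene counted equally, Myh7_1 having 9 sites and Myh7_2 having 4, with the same p. The regions of one gene also differed. Myh6_1 was lower than Myh6_2 in 9 of 9 libraries, with a mean difference of -22.2 ± 2.19 points (exact sign-flip permutation p = 0.0039, n = 9). Myh7_1 was higher than Myh7_2 in 9 of 9, with a mean difference of 49.6 ± 2.2 points (exact sign-flip permutation p = 0.0039, n = 9). The distance between regions of one gene was thus of the size of that between the genes or larger. Regions were amplified with different primers, and how that affects a level was not tested.

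**Figure D1:**
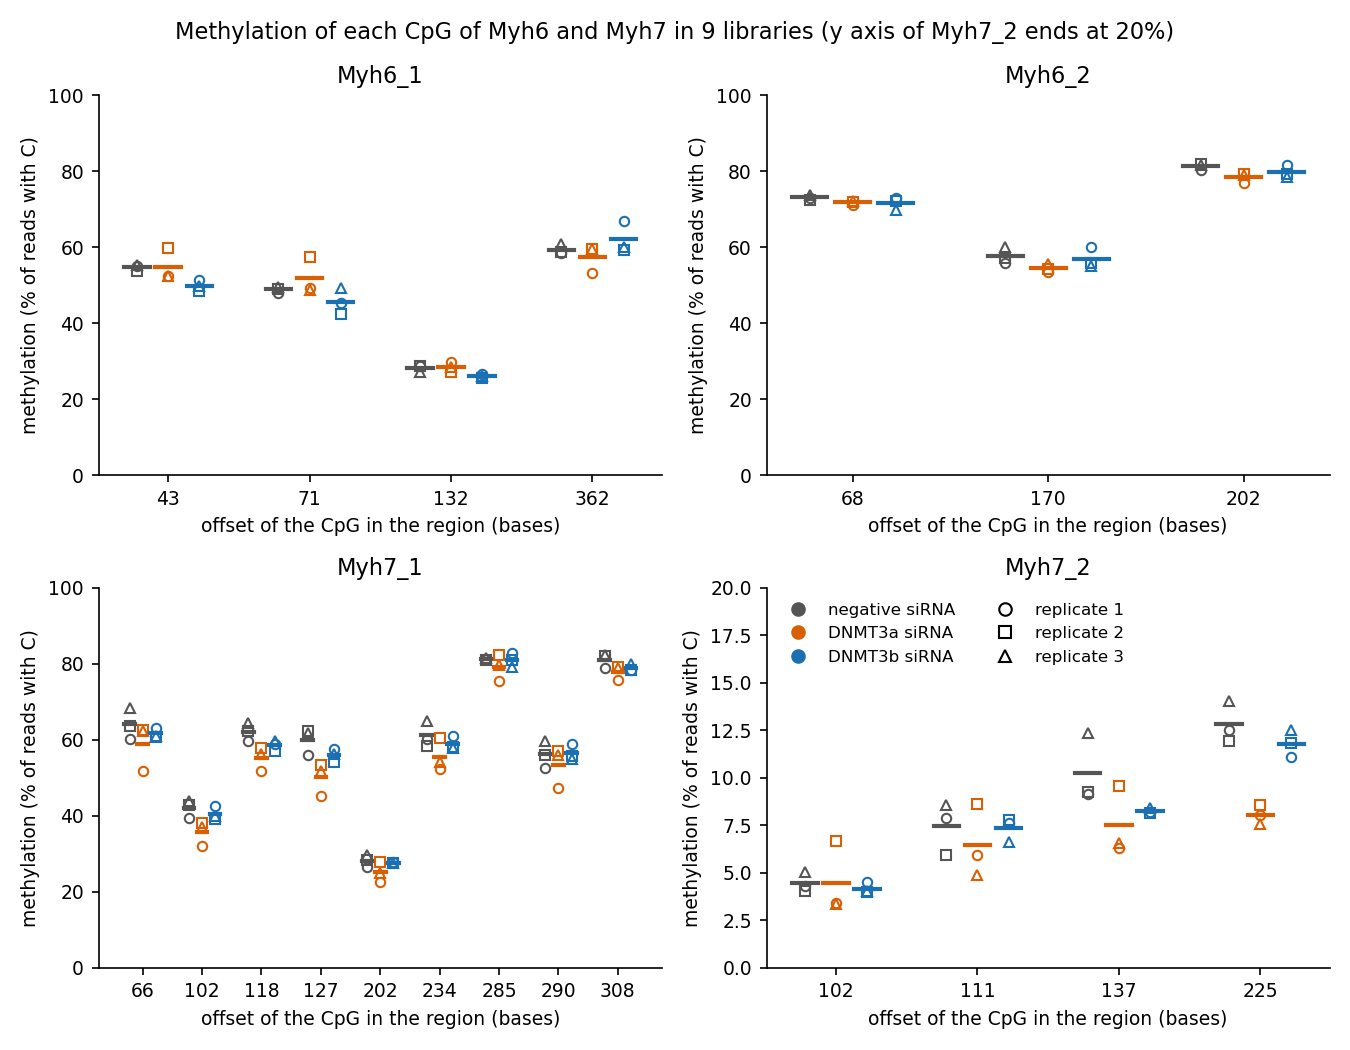
Methylation level (percent of reads with C) of each of the 20 CpG sites, by offset in the region, for the 9 libraries by siRNA (open symbols: libraries, horizontal bars: means). Offset 132 of Myh6_1 and offset 202 of Myh7_1 lie below every other site of their region in all 9 libraries, and the axis of Myh7_2 ends at 20%.

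Levels differed widely between sites of one region. In Myh6_1 the CpG 162 bases before the start (offset 132) was at 28.2% ± 0.83 with negative siRNA (SD, n = 3). Its neighbours at offsets 43 and 71 were at 54.7% ± 0.93 and 48.9% ± 0.83, and offset 362 was at 59.3% ± 1.28. Over all 9 libraries offset 132 stayed between 25.5% and 29.8%, below every value of the other sites of Myh6_1. In Myh6_2, offset 170 was at 57.7% ± 2.04, between offset 68 at 73.1% ± 0.64 and offset 202 at 81.3% ± 0.90.

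Myh7_1 held the widest range. Its CpG at offset 202 was at 28.2% ± 1.68 with negative siRNA and between 22.6% and 29.8% over all libraries. Offset 234, only 32 bases on, was at 61.2% ± 3.48. The highest sites were offsets 285 and 308, at 81.3% ± 0.34 and 81.1% ± 1.97, with offset 290 between them at 56.2% ± 3.59. Offset 102 was at 42.1% ± 2.27, and offsets 66, 118 and 127 were at 64.1% ± 4.20, 62.2% ± 2.33 and 60.1% ± 3.47. Offsets 66, 118, 127, 234 and 290 had overlapping ranges over the 9 libraries. Offsets 102 and 202 each overlapped with no other site of the region. In Myh7_2 the levels with negative siRNA were 4.48% ± 0.50 at offset 102, 7.46% ± 1.36 at offset 111, 10.3% ± 1.84 at offset 137 and 12.8% ± 1.08 at offset 225. The mean was therefore higher at each site nearer to the start, although the ranges of neighbouring sites over the 9 libraries overlapped.

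**Figure D2:**
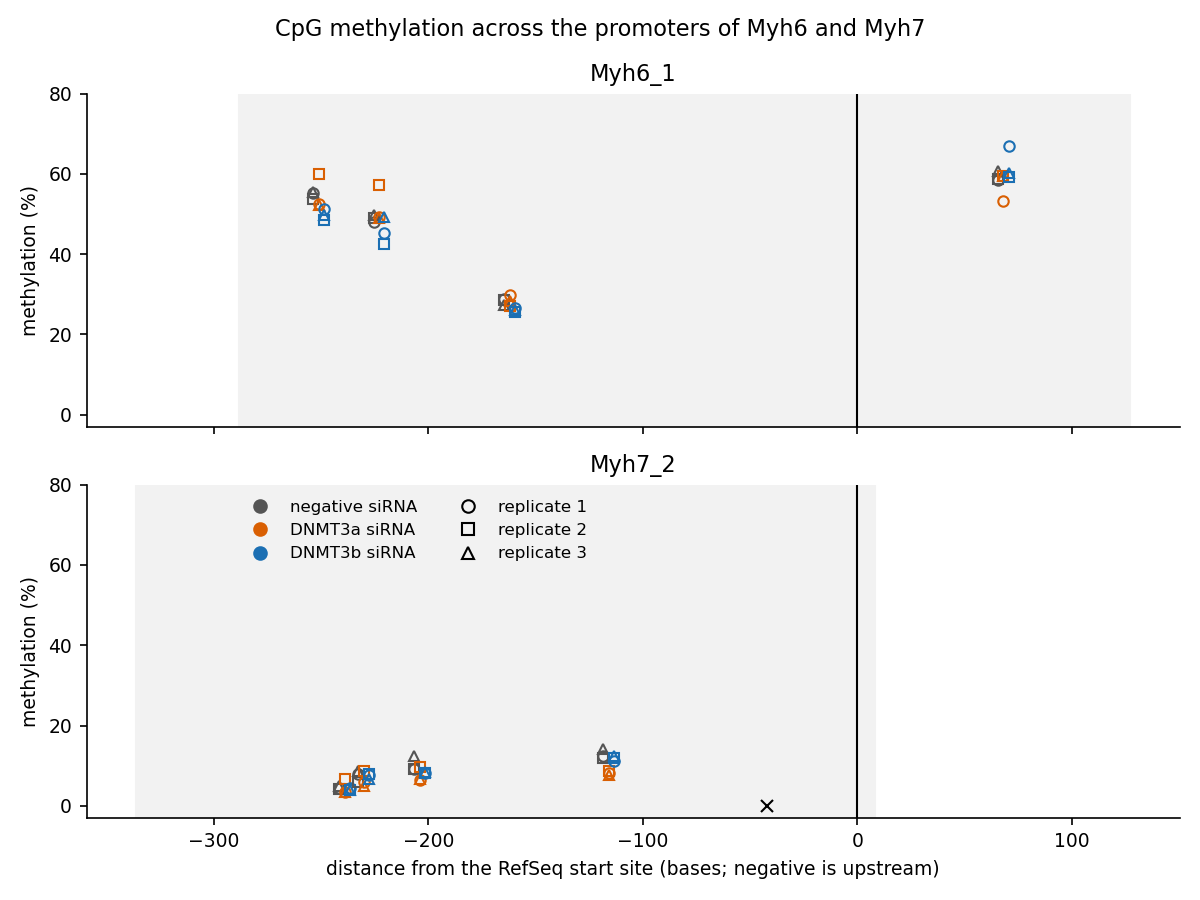
Methylation level of each CpG of Myh6_1 and Myh7_2 against its distance from the RefSeq start (vertical line, negative is upstream, grey: extent of the listed cytosines), with 1 symbol per library. Sites of Myh7_2 stay under 15% and those of Myh6_1 lie above 25%; the cross marks the untested site of Myh7_2, placed at 0 for display only.

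Reads with C outside CpG can come from cytosine that escaped conversion or from methylation outside CpG, and these were not told apart. At the 319 cytosines outside CpG in these regions with at least 30 reads, 0.171% to 0.22% of reads carried C in a library, against 0.174% to 0.227% over all regions. The lowest CpG value of Myh7_2 was 3.38%, at offset 102. Single cytosines outside CpG were not all as low as the pooled rate. In Myh7_2, offsets 6 and 10 averaged 29.99% and 24.7% over the libraries, and the highest of the other 317 averaged 2.99%. Coverage of a member site was 477 to 57651 reads in a library (median 12963), lowest at offset 362 of Myh6_1 with 477 to 834. Library totals were 27193672 to 32543683 cytosine calls. PCR reads carry no molecular identifier here and are not independent molecules. Errors are SDs between libraries, and for odds ratios standard errors (SE) of the fit. For a region, the odds ratio and its p come from reads summed over sites, so sites with more reads weigh more. The region level weights its sites equally, so level and odds ratio are not the same measure.

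DNMT3a siRNA was set against negative siRNA to see whether the methylation of these regions differed. Mean levels were lower with DNMT3a siRNA at 16 of 20 member sites, against 60.6% of all 310, and in 3 of 4 regions, against 65.4% of 26. They were lower at all 3 sites of Myh6_2, all 9 of Myh7_1 and 3 of 4 of Myh7_2, but at only 1 of 4 of Myh6_1. No site or region passed edgeR's quasi-likelihood test on methylated and unmethylated reads, with Benjamini-Hochberg adjustment over all sites or regions of the series and a threshold of 0.05. Of the 20 member sites 0 were called, against 0.0% of 310 sites, and of the 4 regions 0, against 0.0% of 26. Of the sites 5 had an unadjusted p under 0.05, against 12.9%, and of the regions 0, against 15.4%. limma also called 0 member sites, and DESeq2 called 1. The 3 libraries of DNMT3a siRNA lay below all 3 of negative siRNA at 7 of the 20 sites, against 10.6% of all 310, and above them at 0, against 4.52% (either way 15.2%). Sites of one region share molecules, so these counts are not of independent sites. The median difference was -2.84 points over the 20 sites and -0.09 points over all 310, of which many are nearly unmethylated. As log2 odds ratios the medians were -0.234 over the 20 sites and -0.113 over all 310.

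The member site with the smallest p was offset 225 of Myh7_2, 116 bases before the start of the beta-chain gene. Its levels were 12.5%, 11.9% and 14.0% in negative siRNA replicates 1, 2 and 3, and 8.07%, 8.55% and 7.56% with DNMT3a siRNA. All DNMT3a libraries were below all negative ones. The means were 8.06% ± 0.49 and 12.8% ± 1.08, a log2 odds ratio of -0.74 ± 0.14 (SE, edgeR adjusted p = 0.0550), short of the threshold. Its call depended on the method. The site passed in 14 of 38 alternatives, with adjusted p from 4.24e-06 (DESeq2) to 0.275. Among these, 25 were other edgeR settings, looked at with this site's result in view, and 12 of them called it (adjusted p from 0.0131 to 0.242). Some of these settings gave the same or nearly the same fit, so the counts are not a rate of independent support. Of the other 13 alternatives 2 called it, namely DESeq2 and a test of sites between 2% and 98% alone (0.0316).

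The other sites of this promoter did not separate in the same way. At offset 137, next to the M-CAT match, levels were 9.15%, 9.25% and 12.4% with negative siRNA and 6.33%, 9.56% and 6.59% with DNMT3a siRNA. At offset 102 they were 4.33%, 4.06% and 5.04% against 3.41%, 6.67% and 3.38%. DNMT3a siRNA replicate 2 was therefore high among its group at offsets 102, 111 and 137 but low with its group at offset 225. The region level of Myh7_2 was 5.93%, 8.34% and 5.61% with DNMT3a siRNA, overlapping negative siRNA (6.63% ± 1.49 against 8.76% ± 1.13, log2 odds ratio -0.39 ± 0.19 SE, edgeR adjusted p = 0.293). Without replicate 2 the log2 odds ratio was -0.61 and the region was called (adjusted p = 0.0199).

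Myh7_1 had the largest difference in points among the 4 regions. It stood at 50.5%, 57.7% and 55.7% with DNMT3a siRNA, where only replicate 2 reached the range of negative siRNA (54.6% ± 3.71 against 59.6% ± 2.35, a difference of -5.00 points, log2 odds ratio -0.26 ± 0.12 SE, edgeR adjusted p = 0.293). The difference was -2.94 points without DNMT3a siRNA replicate 1, the lowest library. Neighbouring sites at offsets 102, 118 and 127 were the ones without overlap between groups. The same 3 sites had an unadjusted p under 0.05 in this region. Of all 310 sites, 10.6% were lower without overlap and 12.9% had such a p. These neighbours share molecules and are not independent observations. At offset 127 levels were 45.2%, 53.3% and 51.8% against 56.1%, 62.2% and 61.9%, a difference of -9.94 points (edgeR adjusted p = 0.267). Offsets 102 and 118 differed by -6.34 and -6.89 points (adjusted p = 0.312 each).

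**Figure D3:**
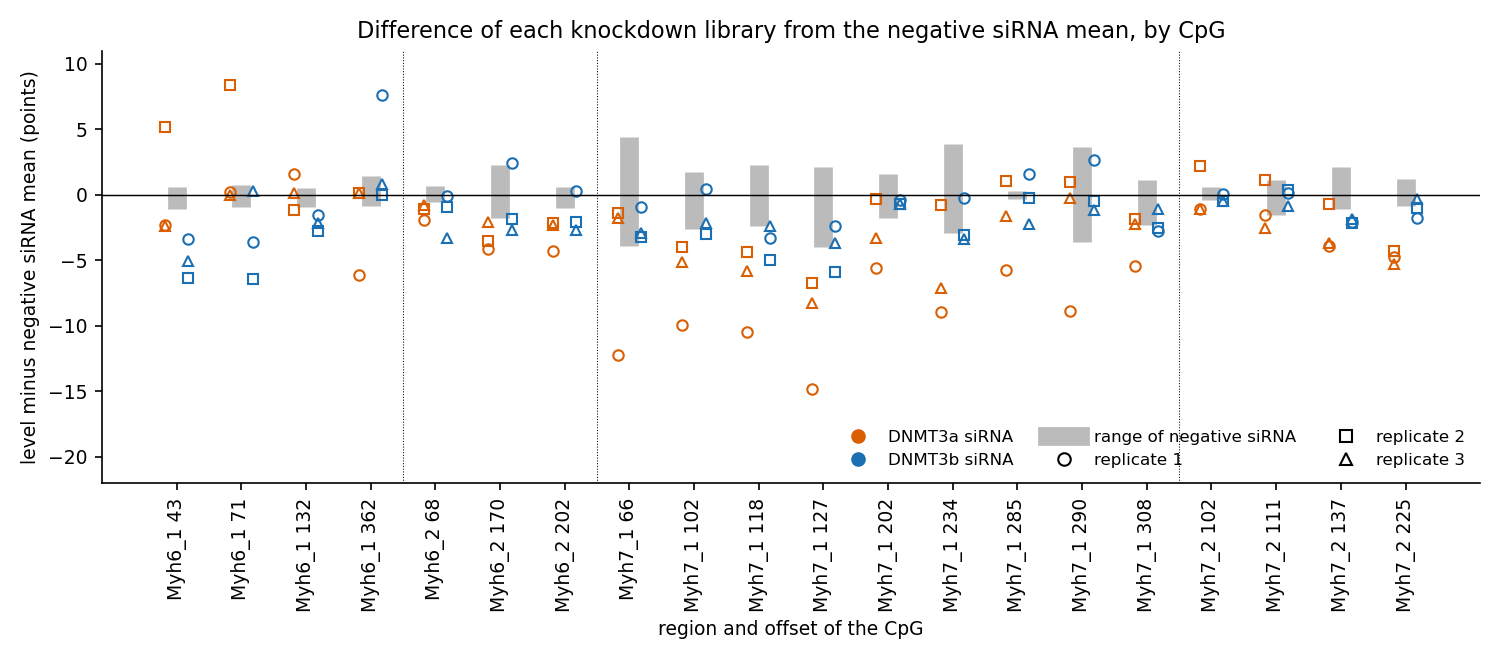
Level of each knockdown library minus the mean of negative siRNA, in points, at each of the 20 CpG sites (orange: DNMT3a siRNA, blue: DNMT3b siRNA, grey bars: range of the 3 negative libraries). DNMT3a siRNA replicate 1 lies lowest at most sites of Myh7_1, replicate 2 lies highest at offsets 43 and 71 of Myh6_1, and all 3 DNMT3a libraries lie below the grey bar at offset 225 of Myh7_2.

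In the alpha-chain gene, the regions gave unlike values with DNMT3a siRNA, a difference that was not tested. Myh6_2 stood at 67.2%, 68.5% and 69.0%, below all negative libraries (68.2% ± 0.90 against 70.7% ± 1.05, log2 odds ratio -0.19 ± 0.10 SE, edgeR adjusted p = 0.293). Groups did not overlap at any of its 3 sites, which share molecules, where 10.6% of all 310 sites were lower without overlap. The site with the smallest p in Myh6, offset 202, was at 78.4% ± 1.22 against 81.3% ± 0.90 (edgeR adjusted p = 0.473). Myh6_2 is 1 of 6 regions without overlap in this comparison (23.1% of 26). Myh6_1 stood at 46.2%, 50.9% and 47.3%, around the negative libraries (48.1% ± 2.5 against 47.8% ± 0.41, adjusted p = 0.827). The difference of 0.32 points in Myh6_1 was 0.78 with reads pooled over the region and turned to -1.09 without DNMT3a siRNA replicate 2. That library was at 59.9% and 57.3% at offsets 43 and 71, where the other 8 libraries reached at most 55.3% and 49.7%.

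The libraries of DNMT3a siRNA were unequal across the members. Replicate 1 was below the range of the negative libraries at 18 of 20 sites, replicate 3 at 14 and replicate 2 at 8. Replicate 2 was above that range at 5 sites, replicate 1 at 1 and replicate 3 at 0. The low values with DNMT3a siRNA were thus found mostly in replicates 1 and 3. Libraries of DNMT3b siRNA were unequal too. Replicates 1, 2 and 3 of DNMT3b siRNA were below the negative range at 7, 14 and 10 sites, and above it at 3, 0 and 0. The same counts are not given here for all sites of the series, so they do not set the members apart from it. What sets DNMT3a siRNA replicate 2 apart was not tested. Its summed coverage of 29309729 cytosine calls was within the range of the other libraries.

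DNMT3b siRNA was compared with negative siRNA to ask the same. Mean levels were lower at 18 of 20 member sites, against 68.7% of all 310, and in 4 of 4 regions, against 80.8% of 26. The median difference was -1.53 points over the 20 sites and -0.24 over all 310, of which many are nearly unmethylated. As log2 odds ratios the medians were -0.135 over the 20 sites and -0.144 over all 310. On that scale the members were no lower than the series. The direction of these differences depended on the scaling. When edgeR took methylated and unmethylated totals as separate library sizes, so that a site is read relative to its library's total methylation, the median log2 odds ratio over all 310 sites moved from -0.14 to 0.02. Then 6 of 20 member sites had a negative log2 odds ratio in place of 18, and 47.7% of all sites in place of 71.3%. With edgeR 0 member sites and 0 member regions were called (0.0% of 310 sites and 0.0% of 26 regions), 0 sites and 1 region, Myh6_1, had an unadjusted p under 0.05 (14.2% of 310 sites and 15.4% of 26 regions), and limma and DESeq2 also called 0. Groups did not overlap at 4 sites, all lower with DNMT3b siRNA, against 18.4% of all sites (2.26% were higher without overlap, and 20.6% either way). The 4 sites without overlap were offsets 43 and 132 of Myh6_1, offset 118 of Myh7_1 and offset 137 of Myh7_2. The count of 4 in 20 was near the share of 18.4%. Region levels overlapped in all 4 member regions, where 19.2% of 26 did not.

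Myh6_1 stood at 47.6%, 43.9% and 46.3% with DNMT3b siRNA (45.9% ± 1.85 against 47.8% ± 0.41, log2 odds ratio -0.18 ± 0.08 SE, edgeR adjusted p = 0.311). Its difference of -1.87 points was -2.86 with reads pooled over the region and -0.87 without DNMT3b siRNA replicate 2. Means were lower at offsets 43, 71 and 132, upstream of the start, and higher at offset 362. Offset 43, 251 bases before the Myh6 start, was at 51.3%, 48.4% and 49.7% against 55.1%, 53.6% and 55.3%, and had the smallest p among sites of Myh6 (log2 odds ratio -0.28 ± 0.16 SE, adjusted p = 0.449). Downstream of the start, offset 362 was at 66.9%, 59.3% and 60.2% against 58.5%, 58.7% and 60.8%, where replicate 1 alone was high on 777 reads.

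The other regions overlapped between DNMT3b and negative siRNA. Myh6_2 stood at 71.6%, 69.1% and 67.8% (difference -1.21 points, edgeR adjusted p = 0.654). It was -0.39 without DNMT3b siRNA replicate 3, -0.65 without negative siRNA replicate 3 and -2.25 without DNMT3b siRNA replicate 1. Myh7_1 stood at 59.0%, 56.9% and 57.4% (difference -1.83 points, -0.67 without negative siRNA replicate 3 and -3.02 without replicate 1, adjusted p = 0.656). Myh7_2 stood at 7.86%, 7.93% and 7.89%, within 0.032 points SD of each other (difference -0.86 points, or -0.24 without negative siRNA replicate 3, adjusted p = 0.561). That spread was narrower than the 1.13 points among negative libraries. Single sites varied more than the region mean with DNMT3b siRNA. The SDs at offsets 102, 111, 137 and 225 were 0.30, 0.64, 0.13 and 0.72 points. With negative siRNA they were 0.50, 1.36, 1.84 and 1.08. Among sites of Myh7, offset 137 had the smallest p, at 8.22%, 8.13% and 8.39% against 9.15%, 9.25% and 12.4% (log2 odds ratio -0.33 ± 0.21 SE, or -0.17 without negative siRNA replicate 3, the highest, adjusted p = 0.531). At offset 225, which was low with DNMT3a siRNA, the DNMT3b libraries were at 11.1%, 11.8% and 12.5%, overlapping the negative ones.

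**Figure D4:**
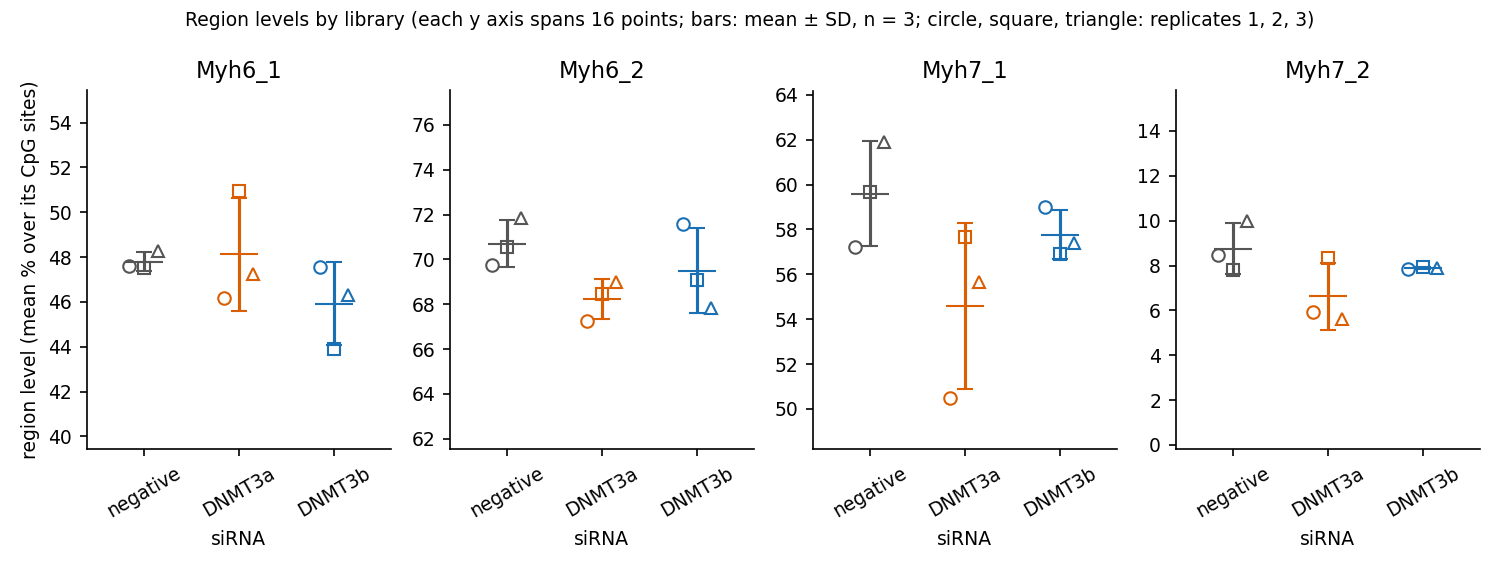
Region level (mean percent over the tested CpG sites) of each library with mean ± SD (n = 3), by siRNA, on axes that each span 16 points. Myh6_2 is the region where DNMT3a siRNA libraries lie below all negative ones, and Myh7_2 with DNMT3b siRNA has the narrowest spread.

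The last comparison set the knockdowns against each other. Mean levels were lower with DNMT3a than with DNMT3b siRNA at 15 of 20 member sites, against 41.6% of all 310, and in 3 of 4 regions, against 42.3% of 26. All 9 sites of Myh7_1 and 3 of 4 of Myh7_2 were lower in mean with DNMT3a siRNA, whereas 3 of 4 sites of Myh6_1 were higher. With separate library sizes the median log2 odds ratio over all 310 sites moved from 0.09 to -0.09, and 18 of 20 member sites in place of 15 had a negative one, against 59.7% of all sites in place of 41.0%. edgeR called 0 of the 20 sites (0.0% of 310), and 1 site had an unadjusted p under 0.05 (8.71% of 310). That site was again offset 225 of Myh7_2, with all 3 DNMT3a libraries below all 3 of DNMT3b siRNA (8.06% ± 0.49 against 11.8% ± 0.72, log2 odds ratio -0.61 ± 0.14 SE, edgeR adjusted p = 0.113). DESeq2 called this member site (adjusted p = 0.00165), and limma called 0. The site passed in 7 of 38 alternatives, of which 6 were among the 25 other edgeR settings, and its adjusted p lay between 0.00165 and 0.536. Here too some settings gave nearly the same fit. This comparison and the one with negative siRNA share the DNMT3a libraries.

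Groups did not overlap at 3 member sites lower with DNMT3a siRNA, namely offset 225 of Myh7_2 and offsets 102 and 127 of Myh7_1, against 6.45% of all sites. They did not overlap at 2 member sites higher with it, offsets 43 and 132 of Myh6_1, against 7.1% (either way 13.5%). Among Myh6 sites the smallest p was at offset 71 of Myh6_1, at 49.2%, 57.3% and 48.9% against 45.3%, 42.5% and 49.2%, with overlap (edgeR log2 odds ratio 0.35, or 0.19 without DNMT3a siRNA replicate 2, adjusted p = 0.549). By region, edgeR called 0 of 4 (0.0% of 26), 0 were without overlap (15.4% of 26), and only Myh6_1 had an unadjusted p under 0.05 (11.5% of 26). Its levels were 48.1% ± 2.5 and 45.9% ± 1.85 (log2 odds ratio 0.22 ± 0.08 SE, edgeR adjusted p = 0.230, and 0.0404 with DESeq2). Its difference of 2.20 points was 3.64 with reads pooled over the region. It was 0.79 without DNMT3a siRNA replicate 2, and 1.19 without DNMT3b siRNA replicate 2. Myh7_1 differed by -3.17 points, or -1.11 without DNMT3a siRNA replicate 1 (adjusted p = 0.511).

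Whether the genes differed in their response was tested on the Myh6 minus Myh7 difference of each library. It was 25.1 ± 0.89 points with negative siRNA, 27.6 ± 0.90 with DNMT3a siRNA and 24.9 ± 1.10 with DNMT3b siRNA (SD, n = 3 each). The gap was 2.48 points wider with DNMT3a siRNA than with negative siRNA and 2.68 points wider than with DNMT3b siRNA. Both gave the smallest p this design allows (exact two-sided permutation p = 0.10, adjusted p = 0.15 over 3 comparisons), so they do not pass 0.05. DNMT3b siRNA and negative siRNA differed by -0.20 points (exact permutation p = 0.90, adjusted p = 0.90). By gene, Myh7 averaged 30.6% ± 2.40 with DNMT3a siRNA against 34.2% ± 1.60, and Myh6 58.2% ± 1.5 against 59.3% ± 0.71.

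Other genes of the contractile apparatus give the setting. Myh7b, a further myosin heavy chain gene, and the troponin genes Tnnc1, Tnni3 and Tnnt2 together had 51 tested sites in 8 regions. With DNMT3a siRNA 45 of the 51 sites were lower in mean than with negative siRNA (11 without overlap, median difference -2.28 points), and with DNMT3b siRNA 49 were (19 without overlap, median -2.35 points). All 8 regions were lower in mean in both comparisons, and edgeR called 0 of them (smallest adjusted p 0.0924 and 0.311). In the direct comparison 25 of the 51 sites were lower with DNMT3a siRNA (median difference 0.05 points), where 15 of the 20 sites of Myh6 and Myh7 were (median -2.13 points). The difference between these lists was not tested.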

How the data were processed

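Bisulfite PCR products of 30 promoter regions were sequenced in 9 libraries. The submitters' processing notes name Bismark, Bowtie2, FastQC and the build mm10, without versions or settings. Each deposited table gives, per the file headers, each cytosine's coverage (a read count) with the percent carrying C and T. Methylated reads were recovered as coverage times percent, and 23884 of 23884 products were whole within 0.01 reads. Removal of PCR duplicates is not given in the sources used here, and a C-to-T difference of the CD-1 strain from the reference would read as loss of methylation.

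edgeR 4.0.16 (R 4.3.3) tested sites and regions (summed reads; quasi-likelihood, its default method, 1 dispersion without trend, a coefficient for each library, all 9 libraries in 1 fit, two-sided). The planned test left these options open. The main options were library sizes averaged within a library and no dispersion trend, without the legacy or robust options. They were kept after 25 other edgeR settings (legacy, robust, library sizes, dispersion, trend) had been run and their calls seen. The choice is therefore not blind to the results, and all 25 are among the alternatives. The others were limma 3.58.1 (log2 ratio of the counts plus 2), DESeq2 1.42.0, other coverage minimums, 6 libraries only, a replicate block, sites of 2% to 98%, pooled reads, other weights and leaving out each library. No adjusted p was made over the member sites alone. Named with statistics are, in each comparison, the site of each gene with the smallest p, and others chosen after their values were seen. The members and lists were chosen with earlier results of these data known. No label says that libraries came from separate litters, so p-values measure the spread between these libraries, which may be technical.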

Additional observations from a re-analysis of the deposited data

Results flagged for a closer look

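A pair of cytosines outside CpG in Myh7_2 carried C in far more reads than the rest, in data that the comparisons of CpG sites do not use. The CHG cytosine at offset 6 (H is any base but G) carried C in 29.99% of reads on average over 9 libraries, from 15.4% to 40.6%, at 42 to 64 reads a library. The CHH cytosine at offset 10 carried C in 24.7% of reads, from 20.1% to 28.6%, at 269 to 463 reads. The other 317 such cytosines of Myh6 and Myh7 with at least 30 reads had means of at most 2.99% and a median of 0.167%. Both lie at the edge of the region, whose listed cytosines begin at offset 5. At offset 10 the means were 25.5% ± 1.93 with negative siRNA, 25.9% ± 2.35 with DNMT3a siRNA and 22.7% ± 2.36 with DNMT3b siRNA (SD, n = 3 each).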

How the results depend on the processing

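For DNMT3a against negative siRNA, 0 called sites became 4 with DESeq2, 2 with sites between 2% and 98%, and 1 or 2 in 12 of the 25 other edgeR settings, which were added after seeing the data. In each of these 14 cases, some of which are nearly the same fit, 1 called site was a member, offset 225 of Myh7_2. Its 0 called regions became 3 with DESeq2 (0 members), 2 in 1 edgeR setting (0 members) and 0 to 3 when single libraries were left out, with 3 (1 member, Myh7_2) without DNMT3a siRNA replicate 2. For DNMT3a against DNMT3b siRNA, DESeq2 called 7 sites (1 member) and 3 regions (1 member, Myh6_1). There 6 edgeR settings with separate library sizes called 2 or 3 sites (1 member), and leaving out single libraries gave 0 to 4 sites, with 4 (0 members) without DNMT3a siRNA replicate 3. For DNMT3b against negative siRNA the count of called sites and regions was 0 under all 38 alternatives.

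The Myh6 minus Myh7 difference between DNMT3b and negative siRNA, -0.20 points, ranged from -0.82 to 0.20 when single libraries were left out. It was 0.18 without replicate 1 of the negative control, and 0.20 or 0.03 when replicate 2 or 3 of DNMT3b siRNA was dropped. In the same comparison, separate library sizes for methylated and unmethylated reads turned the fitted log2 odds ratio of Myh6_2 from -0.07 to 0.101 or 0.087, and that of Myh7_1 from -0.08 to 0.0912 or 0.082, and brought that of Myh6_1 from -0.18 to as little as -0.0077 and that of Myh7_2 from -0.19 to -0.018. For DNMT3a against DNMT3b siRNA they brought that of Myh6_1 from 0.22 to 0.039. Of the alternatives for the main results, 660 kept direction and side of the threshold or stayed within 1 SD between replicates, 49 moved and 3 reversed. For the log2 odds ratios of named sites and member regions, 645 stayed the same, 23 came to pass the threshold and 16 reversed. Many alternatives were nearly the same edgeR fit, so these counts are not a rate of independent support.

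Same-numbered libraries had correlations of deviations from -0.23 to 0.46 over the 310 sites, above 0.1 in 7 of 9 pairs. Of 9 libraries, 5 correlated best with their own number. Pairs with unlike numbers ranged from -0.53 to 0.79. These values do not settle whether the numbers pair libraries. The main tests between groups, including the exact permutation tests, did not pair them. With a replicate block edgeR called 0 sites and 0 regions in each comparison.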
